A study of Rattus norvegicus with 18 samples.

Results

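The table of counts held 32883 gene rows, of which 5710 had an exon length below 200 bases, the size of small RNAs. The rows described here are the 1033 of these that lay on the nuclear autosomes outside a segment of chromosome 6 (133.5 to 134.6 Mb) and that carried 18 or more counts summed over the 18 libraries. On the same chromosomes and positions, 4228 further short rows fell below 18 counts, and 1565 of them had no count in any library. The other 449 short rows, on the mitochondrial or sex chromosomes or in the segment of chromosome 6, were set aside.

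RNA was measured in the gastrocnemius, a calf muscle, of male Brown Norway rats in 3 groups of 6 animals. Young AL rats were 6 months old and fed ad libitum (AL), old AL rats were 28 months old and fed ad libitum, and old CR rats were 28 months old and under caloric restriction (CR), with 55% of the ad libitum intake from 2 months of age. All rats ate the same diet and were housed singly from 2 months. The muscle was ground whole, so that fewer cells of a type and less RNA per cell cannot be told apart. Each library came from 1 rat, and in 3 old CR libraries, named here by their library numbers 8826, 8827 and 8828, the column name did not settle which rat it was. By its sample number, library 8826 would be a further library of rat 15, but its library number is that of another rat in the labels. The 6 old CR libraries were treated as 6 rats. Total counts ranged from 17335401 to 27432767 per library. Library numbers ran in blocks by group, so that handling and group cannot be told apart.

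Genes annotated at this length are mostly small non-coding RNAs. They include small nucleolar RNAs, which guide chemical modification of ribosomal and spliceosomal RNA and often lie in introns of longer genes, and small nuclear RNAs, which form the core of the spliceosome. They also include the hairpin precursors of microRNAs and copies of these genes left through the genome, together with short coding fragments. The identifiers were paired with no symbol (0 of 1033 matched), so that rows are named by position in Rnor_6.0, none is given a class, and the labelled tissue was not checked against markers. The library preparation was one for long RNA, and RNA shorter than the fragments it selects is recovered poorly. The counting did not use strand, so that reads of a short row and of a gene on the opposite strand cannot be told apart. Reads of a short row in an intron likewise cannot be told apart from reads of unspliced RNA of the gene around it. A row with near-identical copies lost the reads that mapped to several places. Rows with copies are therefore uncertain in level.

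The 1033 rows lay on 20 chromosomes and were 49 to 197 bases long, with a median of 112 bases. At the limit of length, the longest 6 rows measured 195 to 197 bases, with 18 to 3820 counts, and the next 5 rows of the table, at 201 to 203 bases, held 29 to 2099 counts. At the limit of counts, 32 rows had 18 counts and 27 rows just outside had 17. A single exon made up all but 69 of the rows. Few of them were deeply counted. The median row had 52 counts over the 18 libraries (quartiles 28 and 117), 843 rows had under 180 counts, and 42 had 1000 or more. Only 309 rows were counted in every library, and 20.0% of the values of a row in a library were 0.

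The short rows together held 628463 counts. The median share of a library on them was lowest in the young AL rats, whose libraries ran from 0.0787 to 0.136% (median 0.127%). In old AL rats it was 0.119 to 0.291% (median 0.235%), and in old CR rats 0.0935 to 0.213% (median 0.155%). The highest single library was rat 10 of the old AL group, at 0.291% (95% Wilson interval 0.289 to 0.293%), and the lowest was rat 1 of the young AL group, at 0.0787% (0.0776 to 0.0799%). These intervals cover counting error only. The groups overlapped, and the sum was not tested.

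**Figure D1:**
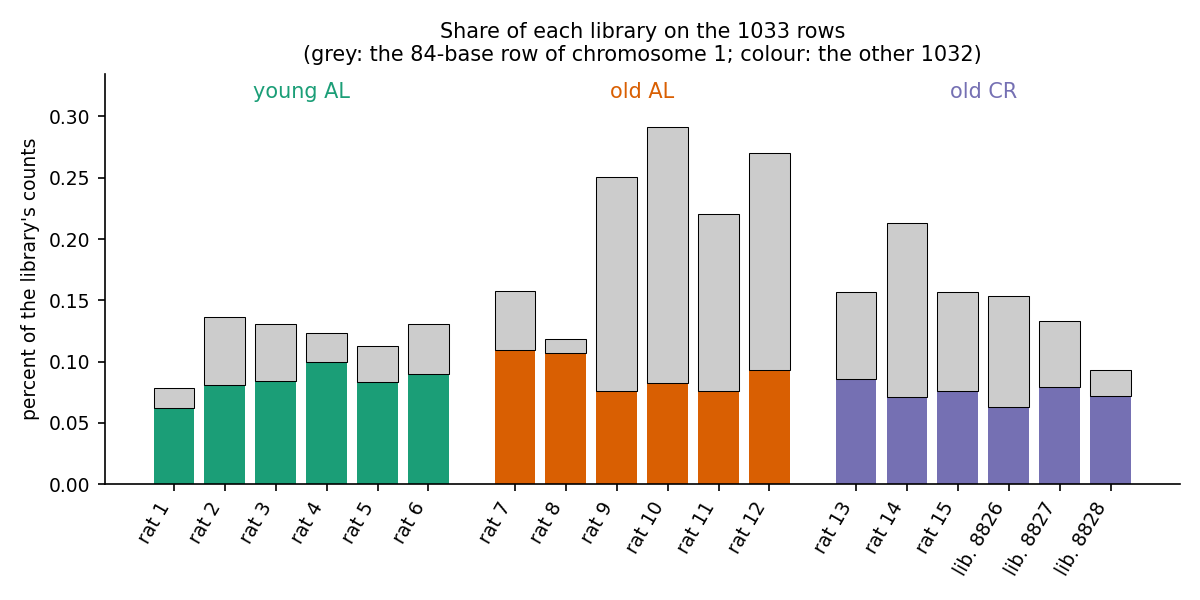
Percent of each library's counts (vertical axis) on the 1033 short rows, 1 bar per library, with the 84-base row of chromosome 1 in grey and the other 1032 rows in the colour of the group. The coloured parts lie between 0.0624 and 0.110% in all 18 libraries, while the grey parts are tallest in old AL rats 9 to 12.

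A single row set most of this spread. The row ENSRNOG00000040350, at chr1:215745981-215746064 on the minus strand and 84 bases long, held 307976 counts, 49.0% of the counts of all short rows. The 3 rows with the most counts held 62.2% and the 15 with the most held 77.1%. Without the 84-base row, the other 1032 rows took 0.0624 to 0.0996% of a library in young AL rats (median 0.0837%), 0.0756 to 0.110% in old AL rats (median 0.0880%) and 0.0631 to 0.0860% in old CR rats (median 0.0739%). The groups then overlapped widely, as the bars by library show.

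The 84-base row was spread widely within groups. Its level, in CPM (counts scaled to a common library size after TMM correction), was 180 to 556 in young AL rats (median 360). In old AL rats it was 79.9 in rat 8 and 427 in rat 7, but 1402 to 2209 in the other 4 rats (group median 1579). In old CR rats it ran from 194 in library 8828 to 1583 in rat 14 (median 747). Old AL rats 9 to 12 thus lay above every young rat, while rats 7 and 8 lay within or below the young range. By edgeR's quasi-likelihood test its log2 fold change was 1.78 in old AL against young AL (SE 0.58, adjusted p = 0.0803), 1.13 in old CR against young AL (SE 0.57, adjusted p = 0.282) and -0.65 in old CR against old AL (SE 0.56, adjusted p = 0.635), and none passed in this fit. It passed in old AL against young AL in 3 of 27 other fits, with DESeq2 on all 18 libraries (1.79), without rat 8 (2.03) and without rat 8 and library 8828 (2.03), and in old CR against young AL in 1, without those 2 libraries (1.34). No longer row lay within 36668 bases of it.

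The 15 rows with the most counts also included the following. The row at chr1:266862579-266862842, with 47622 counts, was at 95.6 to 189 CPM in young AL rats (median 140), 61.8 to 152 in old AL rats (median 117) and 75.3 to 146 in old CR rats (median 112). The row at chr7:141380322-141380495 (18862 counts) had medians of 50.8, 54.9 and 45.1 CPM in young AL, old AL and old CR rats. The row at chr10:56274096-56274238 (22558 counts) had medians of 56.2, 55.0 and 51.5 CPM. The groups overlapped in these 3 rows, and none passed the test in any comparison, with log2 fold changes between -0.34 and 0.03.

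The row at chr16:8337864-8338058 (195 bases, 3820 counts), inside a longer row on the same strand, was low in old CR rats. It was at 2.81 to 26.4 CPM in young AL rats (median 10.3), 7.63 to 14.8 in old AL rats (median 11.9) and 2.88 to 7.53 in old CR rats (median 5.26). Every old CR library lay below every old AL rat, while the young rats overlapped both groups. By edgeR the log2 fold change was -1.31 in old CR against young AL (SE 0.37, adjusted p = 0.0608) and -1.19 in old CR against old AL (SE 0.37, adjusted p = 0.104). It passed in 4 and 5 of 27 other fits, DESeq2 on 18 and on 12 libraries among them in both comparisons.

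The row at chr1:263890686-263890828 (143 bases, 3008 counts) had medians of 11.3, 8.06 and 6.21 CPM in young AL, old AL and old CR rats. In old CR against young AL its change was -0.81 on the log2 scale (SE 0.25, adjusted p = 0.0827 by edgeR), and it passed in 3 of 27 other fits. The row at chr10:55950797-55950936 had medians of 9.68, 10.1 and 5.23 CPM, and passed in old CR against old AL in 2 of 27 other fits. The rows at chr3:94352177-94352256, chr1:226258417-226258557, chr10:94982505-94982605, chr10:94982051-94982117 and chr18:2052459-2052576 passed in no fit run. The last of them had medians of 5.48, 8.47 and 11.0 CPM and log2 fold changes of 0.57, 0.75 and 0.17 (SE 0.45 each) in old AL against young AL, old CR against young AL and old CR against old AL.

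A pair of rows of 183 bases each kept a steady ratio to one another across the 18 libraries. The row at chr1:141218095-141218277 (35359 counts) was at 42.4 to 123 CPM, and the row at chr1:183763482-183763664 (3716 counts) at 4.05 to 12.7 CPM. Their CPM ratio was 8.26 to 10.7 (median 9.81) in every library. This pair was singled out after its values were seen, and whether the rows share reads through similar sequence was not tested.

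Position was described next, since the length rule says nothing of it. A short row was called inside a longer row when its whole span lay within the span of a row with a larger exon length. Of the 1033 rows, 402 (38.9%) lay inside a longer row on the same strand, 221 (21.4%) inside one on the opposite strand only, 6 overlapped one in part and 404 (39.1%) lay outside every longer row. Inside on either strand came to 60.3% of the counted rows (95% Wilson interval 57.3 to 63.2%), and to 28.5% of the 4228 rows below 18 counts (27.1 to 29.9%). The share inside was thus higher among rows that reached 18 counts than among those below. This split is the count minimum that set the rows described, and the difference was not tested. Rows are not independent of one another, and the intervals cover counting error only.

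**Figure D2:**
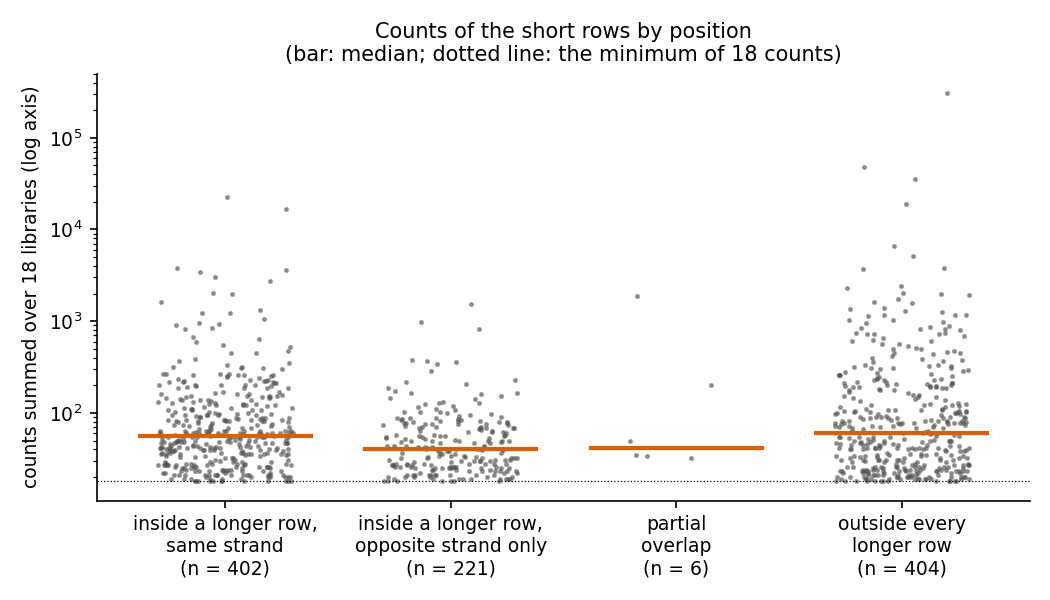
Counts of each short row summed over 18 libraries (vertical log axis) by its position, 1 point per row, with the median as a bar and the minimum of 18 counts as a dotted line. The medians of the 4 classes lie between 40 and 60 counts, and the 3 highest rows lie outside every longer row.

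The 3 deepest rows lay outside every longer row. Median counts were 56 for rows inside on the same strand, 40 for those inside on the opposite strand only, 42 for those with part overlap and 60 for rows outside. Rows outside every longer row held 80.3% of the counts on short rows and those inside held 19.3%, as the plot of counts by position shows. This split rests on the 84-base row ENSRNOG00000040350, and without it rows outside held 61.4% of the counts and rows inside 37.9%. With a minimum of 180 counts in place of 18, the share inside on either strand was 43.7%.

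The counted rows inside longer rows lay mostly in introns. Of the 1033 rows, 1001 shared no base with an exon of another row and 32 shared part of their bases. Of the 181 short rows in the table that lay wholly within exons of another row, none had a count in any library. The counting left out reads that fall on the exons of 2 genes. Among short rows with no such overlap 20.5% reached 18 counts, and among those with part overlap 17.1%.

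By length, the share of short rows that reached 18 counts was 22.1% under 75 bases (102 of 462), 21.0% from 75 to under 100 bases (225 of 1073) and 15.5% from 100 to under 120 bases (241 of 1555). It was 20.8% from 120 to under 150 bases (320 of 1538) and 22.9% from 150 bases up (145 of 633). The class from 100 to under 120 bases was the lowest. Rows of 150 bases or more lay inside longer rows least often, at 31.0% of the counted rows, against 58.2 to 69.7% in the other 4 classes.

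Some short rows stood in close runs. With gaps of at most 1000 bases between neighbours, 130 rows fell into 50 runs, and 16 runs had 3 or more rows, 7 of them within a longer row. The longest run had 9 rows of 61 to 85 bases at chr13:78852741-78855688, outside every longer row, with 19 to 1577 counts a row. The summed level of its rows was 12.6 to 33.7 CPM in young AL rats (median 16.3), 13.3 to 45.9 in old AL rats (median 20.3) and 14.6 to 26.9 in old CR rats (median 19.2), and the groups overlapped. Another run of 8 rows of 64 to 126 bases stood at chr1:224921637-224923957, also outside every longer row. It had median summed levels of 7.44, 9.34 and 9.70 CPM in young AL, old AL and old CR rats. None of the 16 rows of these 2 runs that were tested was called in any comparison.

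The 402 rows inside a longer row on the same strand lay in 327 longer rows, 47 of which held 2 or more and 1 of which held 7. Where several longer rows contained a short row, the one with the most counts was taken, here and in later pairs. Per base, most of these short rows, which lay mostly in introns, were counted far less than the exons of the row that contains them. The ratio of counts per base, short row over containing row, had a median of 0.0899 (quartiles 0.0339 and 0.190) and was above 1 in 17 of 402. It was highest, at 88.9, in the row at chr10:74742592-74742755 (164 bases, 924 counts), whose containing row held 303 counts on 4781 bases of exon. It was 17.6 in the row at chr10:55950797-55950936 (140 bases, 3604 counts) and 6.70 in that at chr18:2052459-2052576 (118 bases, 3411 counts).

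To ask which short rows differed between groups, all rows of the table were tested together in edgeR, where 14646 passed the filter on low counts. Only 210 of the 1033 short rows were among them, 83 inside a longer row on the same strand and 111 outside. The other 823 were not tested in this fit. The threshold for a call was 0.05 for the adjusted p-value together with a 1.5-fold difference in either direction. The tested short rows were measured less precisely than the table as a whole, with a median SE of 0.37 on the log2 scale against 0.19.

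In old AL against young AL rats, 5 of the 210 short rows were called, 1 higher and 4 lower. This is 2.38%, against 3.39% of all 14646 rows tested (1.88% called higher and 1.52% called lower). The split moved when 1 library was left out. Without rat 8, 4 short rows were called higher and 4 lower (3.76%, against 3.99% of all rows). Without rat 9, 0 were called higher and 1 lower (0.459%, against 1.94%). The median log2 fold change was 0.13 over the 210 rows and 0.01 over all rows. In 1 of the 210 the groups did not overlap, against 2.4% of all rows.

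The clearest of these was ENSRNOG00000055918, with 134 bases of exon spread over chr7:144558559-144565278 on the minus strand. Its level was 0.905 to 1.65 CPM in young AL rats (median 1.41), 0.350 to 0.712 in old AL rats (median 0.385) and 0.288 to 0.674 in old CR rats (median 0.498). Every young rat lay above every old rat of both diets. It fell by 1.49 on the log2 scale in old AL against young AL (SE 0.28, adjusted p = 0.00661 by edgeR) and by 1.44 in old CR against young AL (SE 0.27, adjusted p = 0.00751). The old groups differed by 0.05 (SE 0.28, adjusted p = 0.959). Both calls held in each of the 18 fits that left out 1 library and in each of the 9 other fits. The row held 295 counts in all, 6 to 34 in a library, and the nearest longer row lay 114 bases away.

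Of the other rows lower in old AL rats, 2 lay close together on chromosome 2. The row at chr2:41418813-41418886 (74 bases, 675 counts) was at 1.31 to 4.79 CPM in young AL rats (median 2.56), 0.452 to 1.62 in old AL rats (median 0.959) and 1.04 to 2.16 in old CR rats (median 1.51). The change in old AL against young AL was -1.41 on the log2 scale (SE 0.33, adjusted p = 0.0235 by edgeR). The call was lost with edgeR on the 12 libraries compared, with library totals only, without rat 9, and without rat 3, where the value was -1.17 (adjusted p = 0.0596). The longer row that contains it, at chr2:40554146-41464264, had a log2 fold change of -0.87 (adjusted p = 0.0524). The other, at chr2:41467064-41467252 (189 bases, 6582 counts), lay 2800 bases from that longer row. It was at 11.3 to 39.9 CPM in young AL rats (median 25.9), 6.93 to 15.7 in old AL rats (median 13.4) and 11.2 to 17.9 in old CR rats (median 12.7). It fell by 1.06 on the log2 scale (SE 0.29, adjusted p = 0.0408 by edgeR), with groups that overlapped, and the call was kept in 8 of the 18 fits that left out 1 library. It was lost without rats 3, 5, 6, 7, 8, 9, 10, 12, 15 or library 8826, with an adjusted p of up to 0.1004, and in 4 of 9 other fits: edgeR on 12 libraries, a filter of 18 counts summed, no filter, and without rat 8 and library 8828. In old CR against young AL its value was -0.90 (adjusted p = 0.0940), which passed in 4 of 27 other fits.

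A row of 93 bases at chr1:194917277-194917369 fell by 1.80 on the log2 scale in old AL against young AL rats (SE 0.50, adjusted p = 0.0472 by edgeR). Its level was 0.120 to 1.13 CPM in young AL rats (median 0.615), 0.0832 to 0.311 in old AL rats (median 0.171) and 0.425 to 0.911 in old CR rats (median 0.539). The young rats were split, with rats 1, 3 and 6 at or below 0.291 CPM within the old AL range. In old CR against old AL its log2 fold change was 1.75 (SE 0.50, adjusted p = 0.0791), with groups that did not overlap. It held 2 to 25 counts in a library, and its call was kept in 5 of the 18 fits that left out 1 library, those without rats 1, 3, 6, 8 or library 8828. In the others the adjusted p reached 0.104, without rat 5. It was also lost in 5 of 8 other fits: DESeq2 on 12 libraries, upper-quartile factors, library totals only, a filter of 18 counts summed, and no filter.

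ENSRNOG00000057048, at chr3:175769716-175769800 on the plus strand (85 bases, 753 counts), was the 1 short row called higher in old AL than in young AL rats. Its level was 0.677 to 1.45 CPM in young AL rats (median 1.06), 1.40 to 3.24 in old AL rats (median 2.25) and 1.199 to 4.187 in old CR rats (median 2.34). The old groups overlapped the young group only at their lowest rats. It rose by 1.09 on the log2 scale in old AL against young AL (SE 0.30, adjusted p = 0.0458 by edgeR) and by 1.28 in old CR against young AL (SE 0.30, adjusted p = 0.0283). The old AL call was kept in 6 of 18 fits without 1 library, those without rats 8, 11, 13, 14 or libraries 8827 or 8828. The old CR call was kept in 12 of 18, and lost without rats 3, 5, 6, 14 or libraries 8826 or 8827. Without rat 5 the adjusted p reached 0.0972 and 0.0726. Both calls were also lost with no filter, and the old AL call with a filter of 18 counts summed.

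**Figure D3:**
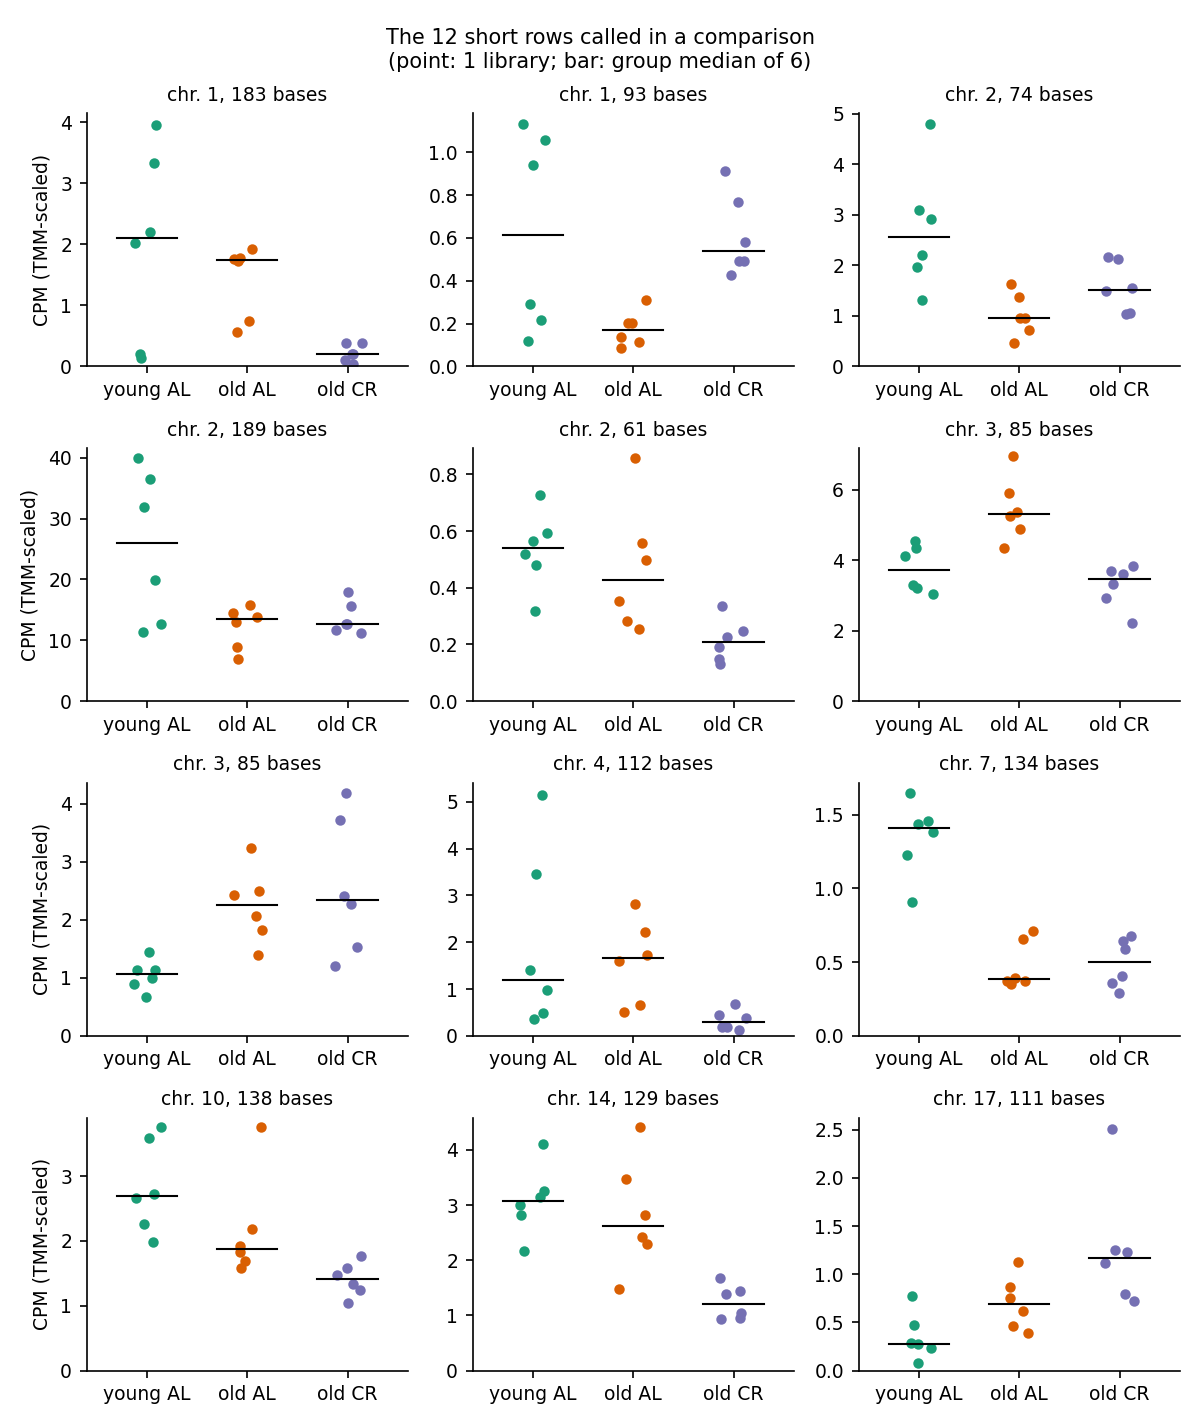
Level of each of the 12 called rows in TMM-scaled CPM (vertical axes, each from 0), 1 point per library and a bar at the median of each group of 6. In the row of chromosome 7 every young AL point lies above every old point, and in the row of chromosome 14 the old CR points, at 0.939 to 1.68 CPM, lie below all young AL points.

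In old CR against young AL rats, 8 of the 210 short rows were called, 2 higher and 6 lower. This is 3.81%, against 1.98% of all rows tested (0.765% called higher and 1.22% called lower). The order of these shares depended on the fit. It held with upper-quartile factors (3.33% against 2.14%), with library totals only (2.86% against 1.63%) and in most fits that left out a library. The order turned in the fits that follow. DESeq2 on the 18 libraries called 16 of 590 short rows, or 2.71%, against 4.03% of all rows, and edgeR on the 12 libraries compared called 5 of 174, or 2.87%, against 3.13%. With a filter of 18 counts summed, edgeR called 10 of the 1033 short rows, or 0.968%, against 1.46%. The median log2 fold change was -0.02 over the 210 rows and 0.00 over all rows. The groups did not overlap in 3 of the 210 rows, against 3.26% of all rows. This comparison shares its young rats with the one above, and ENSRNOG00000055918 and ENSRNOG00000057048 were called in both.

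The row ENSRNOG00000057816, at chr14:86881541-86881669 on the minus strand (129 bases, 913 counts), was lower in old CR rats than in both other groups. Its level was 2.16 to 4.11 CPM in young AL rats (median 3.08), 1.48 to 4.41 in old AL rats (median 2.63) and 0.939 to 1.68 in old CR rats (median 1.21). All 6 old CR libraries lay below every young rat, and 5 of the 6 old AL rats lay above them, rat 8 being the exception. The log2 fold change of the row was -1.31 in old CR against young AL (SE 0.25, adjusted p = 0.00751 by edgeR) and -1.18 in old CR against old AL (SE 0.25, adjusted p = 0.0209). Between old AL and young AL it was -0.13 (SE 0.24, adjusted p = 0.793). The call against young AL held in every fit run. The call against old AL was lost with edgeR on the 12 libraries compared, and without library 8826, at -1.14 (adjusted p = 0.0574).

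The longer row that contains this short row, at chr14:86877627-86885584, changed less. It was at 50.5 to 56.2 CPM in young AL rats, 29.0 to 59.0 in old AL rats and 35.6 to 54.8 in old CR rats. The log2 fold change of the longer row was -0.29 in old CR against young AL (SE 0.14, adjusted p = 0.245 by edgeR) and -0.09 in old CR against old AL (SE 0.14, adjusted p = 0.799). The difference between the short and the containing row was not tested.

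The steepest fall among the tested short rows in old CR against young AL was that of a 183-base row at chr1:174684259-174684441 (452 counts). Its level was 0.136 to 3.95 CPM in young AL rats (median 2.11), 0.556 to 1.92 in old AL rats (median 1.74) and 0.0449 to 0.385 in old CR rats (median 0.197). Every old AL rat lay above every old CR library, but young rats 1 and 2, at 0.194 and 0.136 CPM, lay within the old CR range. Its log2 fold change was -3.15 in old CR against young AL (SE 0.69, adjusted p = 0.0192 by edgeR) and -2.67 in old CR against old AL (SE 0.69, adjusted p = 0.0529). The call was lost without rat 3, at -2.84 (adjusted p = 0.0510). Old CR libraries held 1 to 8 counts on it. The longer row that contains it, at chr1:174655939-174696173, had a log2 fold change of -0.25 in old CR against young AL (adjusted p = 0.355).

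A row of 112 bases at chr4:77463050-77463161 (476 counts) followed the same libraries. It was at 0.362 to 5.15 CPM in young AL rats (median 1.19), 0.510 to 2.83 in old AL rats (median 1.66) and 0.131 to 0.671 in old CR rats (median 0.291). Young AL and old CR rats overlapped, through rats 1 and 2. On the log2 scale it fell by 2.55 in old CR against young AL (SE 0.64, adjusted p = 0.0380 by edgeR), and the call was kept in 10 of 18 fits without 1 library. It was lost without rats 3, 4, 6, 14, 15 or libraries 8826, 8827 or 8828, and without rat 3 the value was -2.01 (adjusted p = 0.104). It was also lost with no filter, and without rat 8 and library 8828.

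The likeness of these 2 rows was looked at over the 18 libraries, after their values were seen. On log2(CPM + 0.5), the row of chromosome 4 had a Pearson r of 0.94 with the 183-base row, and next came the row at chr10:74742592-74742755 (r = 0.91) and one at chr1:225084960-225085107 (148 bases, r = 0.87). An r above 0.7 with the 183-base row was found in 14 of the other 209 short rows tested (6.70%) and in 94 of 14645 rows of the table (0.642%). The points share libraries and groups, and low counts, so the values describe these libraries only. In the row of chromosome 10, young rats 1 and 2 were at 0.920 and 0.905 CPM and the other young rats at 2.67 to 6.66. In the 148-base row they were at 0.678 and 0.633 CPM and the other young rats at 1.99 to 4.28. Rats 1 and 2 were thus the lowest young rats in all 4 rows. Neither of the 2 added rows was called in any comparison.

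**Figure D4:**
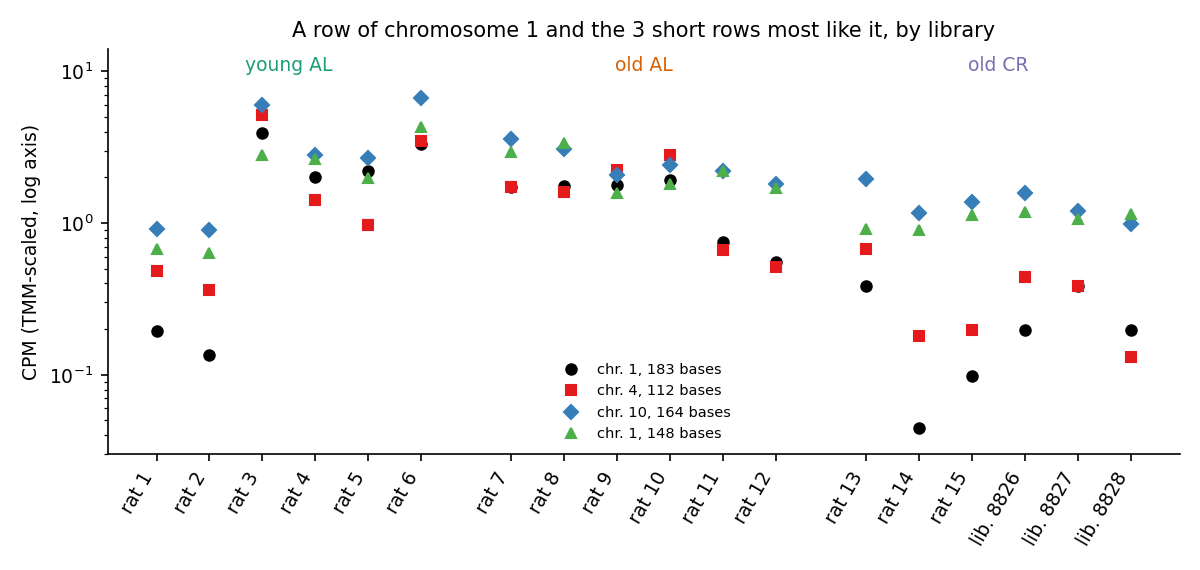
Level in TMM-scaled CPM (vertical log axis) of the 183-base row of chromosome 1 and the 3 short rows most like it, 1 marker per row and library. All 4 rows are low in young rats 1 and 2 and in the old CR libraries, where the 183-base row is at 0.0449 to 0.385 CPM.

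The other 3 rows called in old CR against young AL rats follow. A row of 138 bases at chr10:62703462-62703601 (818 counts) was at 1.99 to 3.76 CPM in young AL rats (median 2.69), 1.58 to 3.76 in old AL rats (median 1.88) and 1.04 to 1.77 in old CR rats (median 1.41). Old CR libraries lay below every young rat, with a log2 fold change of -1.003 (SE 0.238, adjusted p = 0.0294 by edgeR). The call was kept in 11 of 18 fits without 1 library, and lost without rats 3, 4, 6, 14, 15 or libraries 8826 or 8828, with an adjusted p of up to 0.0692. It was also lost with library totals only and with no filter.

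A row of 61 bases at chr2:62203811-62203871 (159 counts) was at 0.317 to 0.727 CPM in young AL rats (median 0.542), 0.254 to 0.857 in old AL rats (median 0.427) and 0.131 to 0.337 in old CR rats (median 0.208). Its log2 fold change was -1.31 in old CR against young AL (SE 0.35, adjusted p = 0.0473 by edgeR), while that of its containing row was -0.28 (adjusted p = 0.125). The groups overlapped, and the call was kept in 3 of 18 fits without 1 library, those without rats 2, 7 or 8, with an adjusted p of up to 0.111 in the others. It was also lost in 5 of 8 other fits: upper-quartile factors, library totals only, a filter of 18 counts summed, no filter, and without rat 8 and library 8828.

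ENSRNOG00000051877, at chr17:32999472-32999582 on the minus strand (111 bases, 308 counts), was higher in old CR than in young AL rats. It was at 0.0847 to 0.775 CPM in young AL rats (median 0.277), 0.396 to 1.13 in old AL rats (median 0.691) and 0.719 to 2.50 in old CR rats (median 1.17). Young rat 1 alone reached the old CR range. The log2 fold change was 1.82 (SE 0.43, adjusted p = 0.0271 by edgeR), and the call was kept in 13 of 18 fits without 1 library. It was lost without rats 3, 4, 5 or libraries 8826 or 8827, with an adjusted p of up to 0.0668, and with no filter. In old AL against young AL it was 0.99 (SE 0.43, adjusted p = 0.184).

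In old CR against old AL rats, 2 of the 210 short rows were called, both lower. This is 0.952%, against 1.38% of all rows tested (0.833% called higher and 0.546% called lower). No short row was called higher by edgeR. At an unadjusted p under 0.05 by edgeR, 7 of the 210 had a higher value, or 3.33%, against 7.67% of all rows. In either direction 34 had such a p, or 16.2%, against 15.3%. DESeq2 called 3 higher and 8 lower over the 18 libraries. Those 11 were 3.22% of the 342 short rows with an adjusted p, against 2.74% of all rows, so the order of the shares turned here too. Without rat 8 and library 8828, edgeR called 3 higher and 2 lower, and 1 higher without rat 3, without rat 8 or without library 8828. The median log2 fold change was -0.12 over the 210 rows and -0.02 over all rows. The groups did not overlap in 8 of the 210 rows, or 3.81%, against 2.06% of all rows.

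Beside the 129-base row of chromosome 14, the row called was one of 85 bases at chr3:124939267-124939351 (1628 counts). It was at 3.05 to 4.54 CPM in young AL rats (median 3.72), 4.36 to 6.95 in old AL rats (median 5.31) and 2.22 to 3.85 in old CR rats (median 3.46). Every old CR library lay below every old AL rat, and the young rats overlapped both. With edgeR the log2 fold change was -0.74 in old CR against old AL (SE 0.17, adjusted p = 0.0273 by edgeR) and 0.53 in old AL against young AL (SE 0.17, adjusted p = 0.0721). The call was kept in 12 of 18 fits without 1 library, and lost without rats 9, 12, 14, 15 or libraries 8826 or 8827, with an adjusted p of up to 0.0779. It was also lost with edgeR on 12 libraries and with no filter.

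In all, 12 short rows were called in some comparison, 4 inside a longer row on the same strand and 8 outside every longer row, and 3 were called in 2 comparisons. Of the 15 calls, 12 held in a fit without old AL rat 8 and old CR library 8828. These 2 libraries were chosen with earlier results over the whole table known. On the short rows, rat 8 had its count as the highest of the 18 libraries in 210 of the 1033 rows (20.3%), although its library was the smallest but 1. Library 8828, the largest, had the highest count in 14.4% of the rows, on counts not scaled for depth. Rat 8 also had a count on 956 of the rows, the most of any library, and the largest TMM scaling factor, 1.44. Without both libraries, 9, 7 and 5 of 208 short rows were called in old AL against young AL, old CR against young AL and old CR against old AL. These are 4.33, 3.37 and 2.40%, against 4.83, 3.11 and 3.26% of all rows in the same fit.

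For the 83 tested pairs of a short row and the longer row that contains it, in 64 longer rows, the changes of both were set side by side. They had the same sign in 52 of 83 pairs (62.7%) in old AL against young AL, in 49 (59.0%) in old CR against young AL and in 51 (61.4%) in old CR against old AL. Pearson's r across the pairs was 0.46, 0.42 and 0.27 in this order, and Spearman's rho was 0.30, 0.37 and 0.29. These values are a description only, since both rows of a pair come from the same libraries and some pairs share a longer row. The short rows had the larger changes, with a median absolute log2 fold change of 0.32, 0.49 and 0.37 against 0.12, 0.16 and 0.11 in the longer rows. They also had fewer counts, and how much of this is counting error was not tested.

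**Figure D5:**
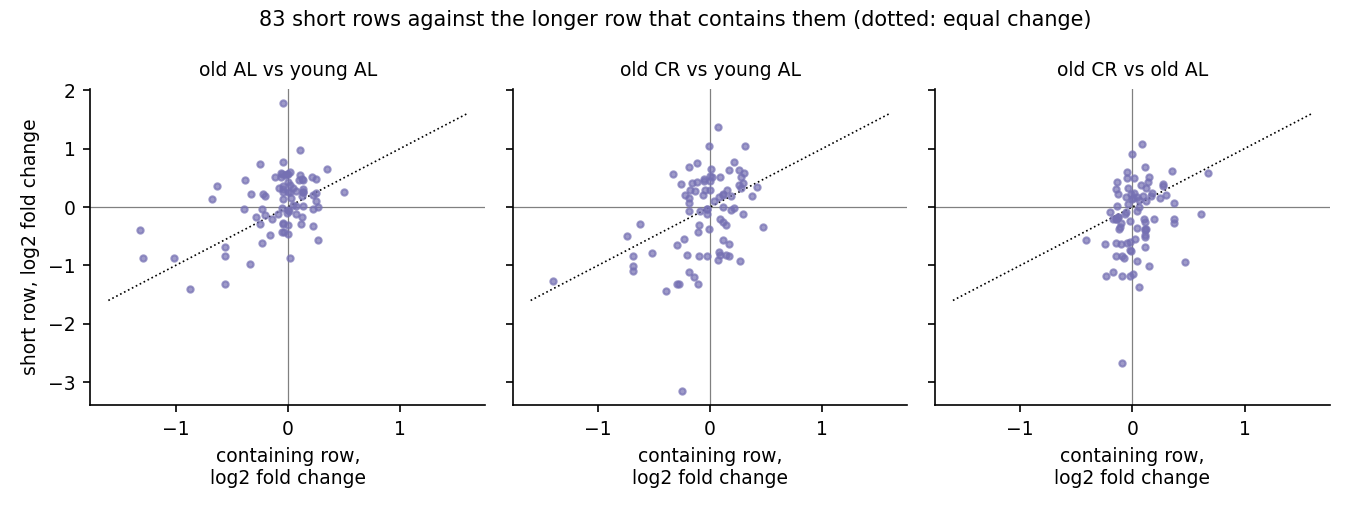
Log2 fold change of 83 short rows (vertical axis) against that of the longer row on the same strand that contains each (horizontal axis), 1 panel per comparison, with equal change as a dotted line. Points spread farther up and down than sideways, and the lowest, at -3.15, is the 183-base row in old CR against young AL.

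A set of short rows was counted almost only in rat 14, an old CR rat. More than 50% of the counts came from 1 library in 12 of the 1033 rows, and in 10 of them this was rat 14. Of the 10, 7 stood in a stretch at chr11:29008267-29618857, which held 8 rows in the table, 7 of them short. These 7 rows had 44 to 950 counts each, of which 93.2 to 100% came from rat 14. Over all 8 rows of the stretch, rat 14 held 2127 of 2157 counts, and no other library held more than 10. These rows were chosen after their values were seen. A further row, chosen in the same way, at chr10:87946612-87946705 (94 bases), had 99.4% of its 176 counts in rat 14. Rat 14 also had the highest share of counts on the mitochondrial chromosome, 12.4%, with 10.5% and 10.4% in libraries 8826 and 8827, and its part in these counts was not tested. Only 1 of the 12 rows, at chr1:11906441-11906593 (153 bases, 415 counts), passed the filter, and it was not called in any comparison.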

How the data were processed

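The authors isolated total RNA from gastrocnemius, depleted ribosomal RNA, prepared strand-specific paired-end libraries, trimmed reads with cutadapt 1.2.1, aligned them to Rnor_6.0 with STAR 2.3.0e and counted them on annotation release 96 with featureCounts 1.6.4, without the strand option. The deposited values are these raw counts, whole numbers per gene row and library. All 18 sample columns were used and 0 were left out. In 3 of them only the group, not the rat, could be assigned.

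Counts were analysed in R 4.3.3 with edgeR 4.0.16 (filterByExpr, TMM factors, quasi-likelihood test over all 18 libraries, Benjamini-Hochberg adjustment over 14646 rows), and in Python 3.11.15. DESeq2 1.42.0 served as an alternative. Standard errors are on the log2 scale. On simulated data over 15041 rows, the edgeR steps recovered 100% of rows changed 4-fold in old AL against young AL. They recovered 94% and 93% of rows changed 2-fold in old CR against young AL and against old AL, and 4.57 to 7% of calls were false. The changed rows were drawn from rows with more counts than most short rows have, and all simulated rows had the same spread. These shares therefore cannot be taken for the short rows.

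The rows, lists and tests were chosen with earlier results of these data known. Rows named for their values are the 15 with the most counts, every row called, their containing rows and those at the limits of the rule. Other rows and stretches named were chosen after their values or positions were seen. Every row named for a comparison passed the filter, so the planned exact permutation test for rows below it was not needed. Depth limits precision, since 3 counts equal 0.0979 to 0.180 CPM. p-values measure the spread between rats. The alternatives were other tests, scalings, filters, thresholds, libraries left out, and other limits on the rows.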

Additional observations from a re-analysis of the deposited data

Results flagged for a closer look

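Among 87 sets of 6 libraries looked at, 4 held a library whose gap to the nearest other library was large against the whole range, and chance gives about 1 in 20, or 4.35. In young AL rats, the row at chr10:94982505-94982605 was at 63.6 CPM in rat 3, and the next rat was at 39.9. In old AL rats, the row at chr10:55950797-55950936 was at 34.5 CPM in rat 8, and the next at 11.3. In the same group, the row at chr10:62703462-62703601 was at 3.76 CPM in rat 7, and the next at 2.18. In old CR rats, the row at chr17:32999472-32999582 was at 2.50 CPM in library 8827, and the next library was at 1.26. The last of these rows is called in old CR against young AL, and its call was lost without library 8827.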

How the results depend on the processing

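Calls of short rows were few and moved with the fit. In old AL against young AL, 5 became 10 with DESeq2 on all 18 libraries, 2 with edgeR on the 12 libraries compared, 2 with a filter of 18 counts summed, 2 with no filter, 9 without rat 8 and library 8828 and 1 at an adjusted p of at most 0.01. The 8 calls in old CR against young AL became 16 and 15 with DESeq2 on 18 and 12 libraries, 5 with edgeR on 12, 5 with no filter, 2 at 0.01 and 5 among rows not inside a longer row on the same strand. The 2 in old CR against old AL became 11 and 14 with DESeq2, 5 with edgeR on 12 libraries, 5 with library totals only, 5 without rat 8 and library 8828, 0 at 0.01 and 1 among rows not inside a longer row on the same strand. Beside those 0 calls by edgeR, 34 of the 210 short rows (16.2%) had an unadjusted p under 0.05, against 15.3% of all rows tested. Calls over all rows moved with the fit as well. With DESeq2 on 18 libraries the shares called were 2.00, 2.71 and 3.22% of short rows and 5.81, 4.03 and 2.74% of all rows, in this order of comparisons. On 12 libraries DESeq2 gave 1.11, 3.36 and 5.28% against 4.95, 5.69 and 2.87%, and edgeR 1.13, 2.87 and 2.86% against 1.83, 3.13 and 0.917%.

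Leaving out 1 library gave 1 to 8, 2 to 13 and 0 to 5 calls in this order. Shares of all rows moved as well. In old AL against young AL, 0.459% of short rows were called without rat 9, against 1.94% of all rows. Without rat 8 these shares were 3.76% and 3.99%. In old CR against young AL they were 0.917% against 1.26% without rat 3, and 5.86% against 1.90% without rat 1. In old CR against old AL they were 0% against 0.464% without library 8826, and 2.25% against 1.46% without rat 1. In old AL against young AL the count was 1 without rat 9, 2 without rats 3, 5, 10, 12, 15 or library 8826, 3 without rats 4, 6 or 7, and 8 without rat 8. For old CR against young AL it was 2 without rat 3, 3 without library 8826, 4 without rats 4, 6 or library 8827, 5 without rats 5, 14 or library 8828, and 13 without rat 1. For old CR against old AL it was 0 without library 8826, 1 without rats 9, 12, 14, 15 or library 8827, 4 without rat 8 and 5 without rat 1. No called row changed direction in any fit. With library totals only, the median of all rows moved by 0.17 in old AL against young AL and by -0.17 in old CR against old AL, and the calls were then 2 higher and 2 lower in the first. DESeq2 on all 18 libraries called 5 higher and 5 lower there.

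The median share of a library without the row with the most counts, and without the 3 with the most, was 0.0837 and 0.0630% in young AL, 0.0880 and 0.0626% in old AL and 0.0739 and 0.0563% in old CR. In young AL it was 0.0835% for rows under 150 bases and 0.0958% for rows not inside a longer row on the same strand. The share of rows inside a longer row was 38.9% on the same strand only, 43.7% at 180 counts and 65.1% under 150 bases. No paired analysis was possible because the groups share no replicate number. The cause of these shifts was not tested. With a filter of 18 counts summed, which tests all 1033 rows, 2 of 2, 7 of 10 and 2 of 3 calls were also calls with the usual filter, in this order of comparisons. Those calls are 0.194, 0.968 and 0.290% of the short rows, against 2.25, 1.46 and 0.738% of all rows.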

Other observations

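A pair of the short rows tested had wide fold changes with most of their counts in 1 to 3 libraries, and neither was called. They were chosen after their values were seen. The row at chr8:41701850-41702599, with 87 bases of exon and 322 counts, had 142 counts in rat 9, 57 in rat 12 and 44 in rat 10, all old AL rats, and at most 18 in any other library. Its log2 fold change in old AL against young AL was 3.49 (adjusted p = 0.0593 by edgeR). In old CR against old AL it was -3.31 (adjusted p = 0.101 by edgeR). The row at chr1:11906441-11906593 had 259 of its 415 counts in rat 14 and at most 28 in any other library, and its log2 fold change in old CR against old AL was 3.88 (adjusted p = 0.0738 by edgeR).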
